A study of Mus musculus with 37 samples.

Results

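The genes described here are 9 members of transforming growth factor beta (TGF-beta) signalling, measured in the intact mammary gland of irradiated and sham-irradiated mice. They are the 3 ligands Tgfb1, Tgfb2 and Tgfb3, the receptors Tgfbr1, Tgfbr2 and Tgfbr3, and Smad7, Pmepa1 and Skil, which are transcribed in response to the pathway and feed back on it. The genes were taken by name. For each, the array probe set annotated with that symbol alone was used, choosing by the highest mean over the 37 arrays where a gene has several. By this rule 8 of the 9 genes had a value, out of 18820 genes with a probe set of their own. The only probe set listed for Tgfbr2 carries a second symbol as well, so that gene is not reported. Each of the 8 had 1 probe set of its own and passed the filter on low values that left 13174 genes for testing.

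Female BALB/c mice had been cleared of the inguinal gland on one side as weanlings, and the arrays hold total RNA of the other, uncleared gland. At 10 weeks of age they received 100 cGy of sparsely ionizing gamma-rays, 30 cGy or 10 cGy of densely ionizing silicon ions (Si, 350 MeV/amu), or sham exposure. Glands were taken 1, 4 and 12 weeks later, with 4 arrays for sham glands at week 4 and 3 for each of the other 11 groups. All groups shared the surgery and the transport to the irradiation facility, and the glands of weeks 4 and 12 were collected after the mice had been moved back. Week after exposure, age of the mouse and place of collection therefore cannot be told apart. The labels do not tie arrays to single animals, and p-values here reflect only how much these samples vary, which may be technical.

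TGF-beta ligands are secreted bound to a latency peptide and are held in the matrix until they are activated. The active ligand brings together a type II and a type I receptor, encoded by Tgfbr2 and Tgfbr1, and the type I receptor phosphorylates SMAD proteins that carry the signal to the nucleus. Betaglycan, the product of Tgfbr3, is a co-receptor that presents ligand and matters most for TGF-beta2. In the mammary gland the pathway is known for restraining epithelial proliferation, and the latent ligand is known to be activated by ionizing radiation. That activation acts on protein and is not measured by RNA.

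Values are log2 expression values. They compare arrays for one gene, and a level of one probe set says nothing against the level of another. The gland is a mix of tissues, and fewer cells of a type and less RNA per cell cannot be told apart in it. Epithelial and fat markers were present throughout: Krt8, a keratin of luminal epithelium, had a mean of 10.8, Krt14 of basal epithelium 7.23, and Adipoq of fat cells 11.4. Over all probe sets, pairs of arrays correlated at 0.948 to 0.987 (median 0.978). The arrays least like the rest were replicate 1 of sham week 4 and replicate 3 of sham week 1. The former had the highest score of 37 for brown adipocyte markers (1.30) and the lowest for basal epithelium and skeletal muscle. The latter had the highest score for B cell markers (3.16) and the lowest for luminal epithelium (-0.83) and macrophages. Ucp1, the defining brown fat gene, is part of the brown adipocyte score. Its mean over the 37 arrays (3.38) was below the filter, which does not give its level on any single array. A score is the mean over a list of markers of the log2 deviation from each marker's mean over the arrays. Where leaving out one of these arrays least like the rest moved a singly described difference of a member from sham by over 1.5 times, both values are given. Ranges over several comparisons and the differences of other pathway genes from sham are from all arrays.

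The promoters of Tgfb1 and Tgfb2 are shown because, of these ligands, Tgfb2 was called between weeks and Tgfb1 was not, as described further on. RefSeq promoter windows, 250 bases before to 50 after the start of the gene, were at hand for 4 of the 9 members in build GRCm38.p6. Capitals mark GC boxes (GGGCGG) in the first and a TATA box (TATAAA) in the second, searched on both strands.
Tgfb1, chr7:25686752-25687051, plus strand: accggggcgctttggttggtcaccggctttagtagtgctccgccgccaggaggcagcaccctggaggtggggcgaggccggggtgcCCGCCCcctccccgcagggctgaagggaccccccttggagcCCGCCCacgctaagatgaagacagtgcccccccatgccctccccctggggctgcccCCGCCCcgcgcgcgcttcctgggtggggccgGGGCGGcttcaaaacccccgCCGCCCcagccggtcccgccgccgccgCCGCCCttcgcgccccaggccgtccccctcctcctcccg
Tgfb2, chr1:186705940-186706239, minus strand: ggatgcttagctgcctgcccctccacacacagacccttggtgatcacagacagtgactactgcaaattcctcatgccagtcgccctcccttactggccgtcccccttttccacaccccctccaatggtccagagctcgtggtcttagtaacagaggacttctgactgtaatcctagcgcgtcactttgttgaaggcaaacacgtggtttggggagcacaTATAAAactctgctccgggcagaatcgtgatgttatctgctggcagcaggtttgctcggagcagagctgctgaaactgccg
The Tgfb1 window holds 6 GC boxes, has no TATA box match, and is 77.0% G and C against a median of 52.7% over 32851 promoters. The Tgfb2 window holds 1 TATA box that begins 31 bases before the start and no GC box, and is 54.3% G and C. A GC box occurs in 35.7% of all promoters of this length and a TATA box in 13.6%. The palindrome GTCTAGAC, to which SMAD proteins bind, and the cyclic AMP element TGACGTCA occur in 0.213% and 1.79% of them, and in neither window. These matches are a description of the letters only.

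**Figure D1:**
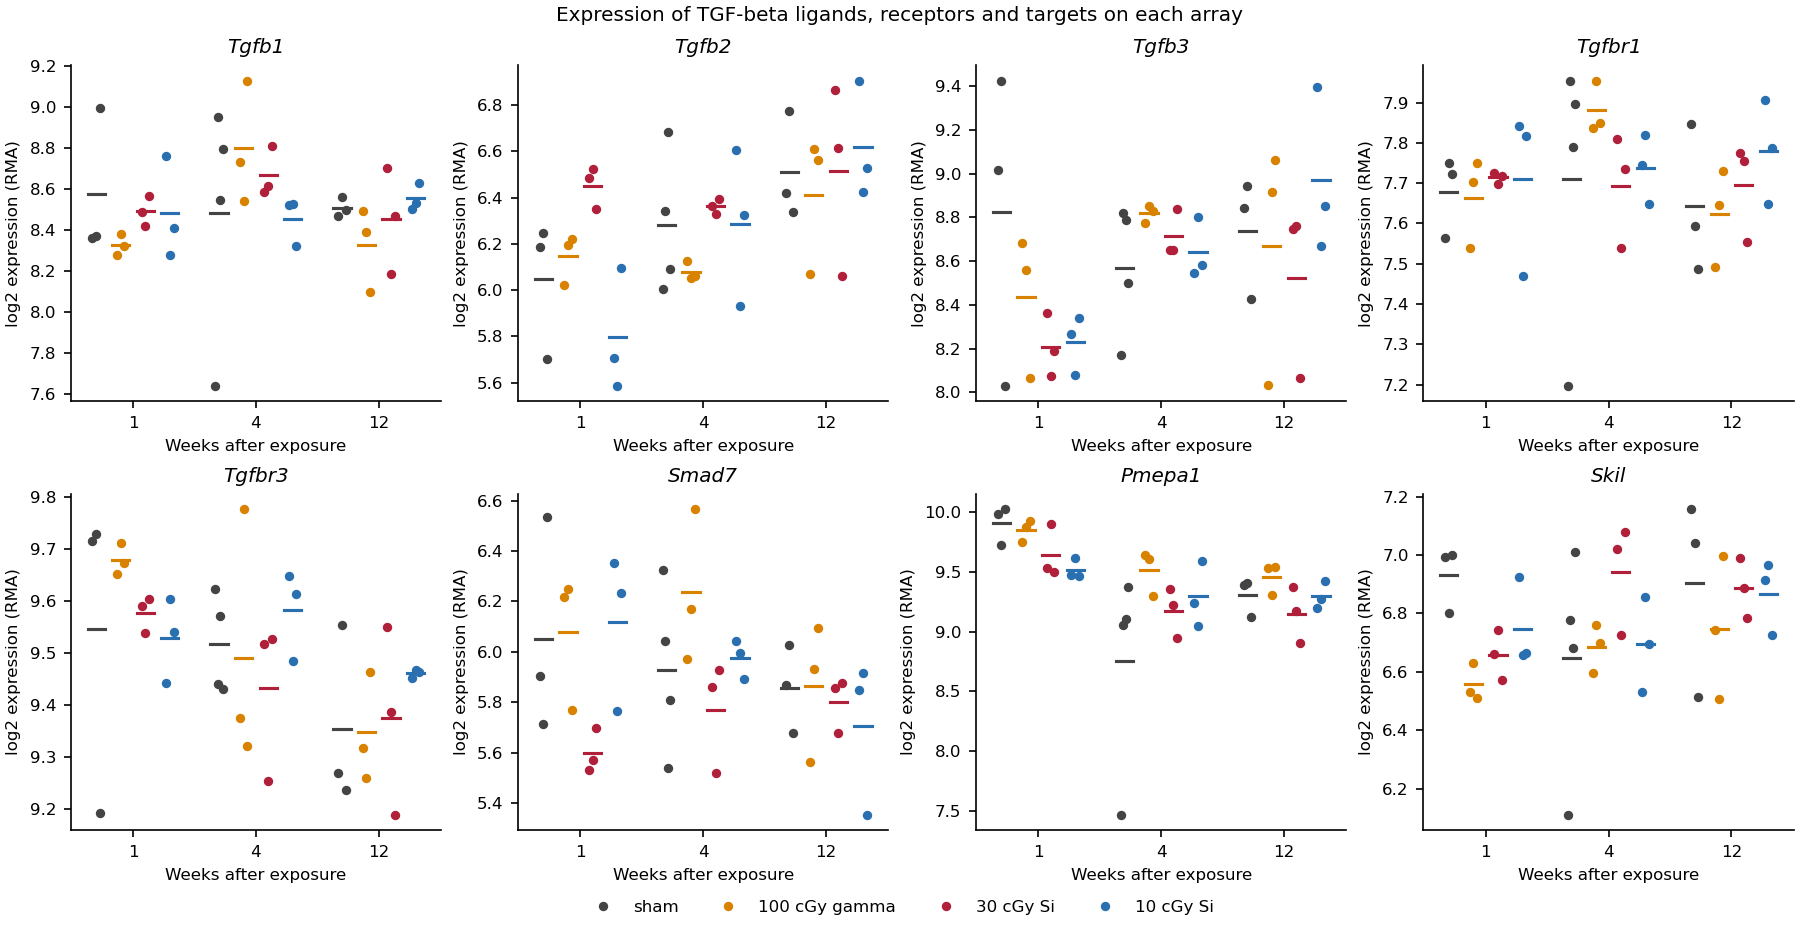
Log2 expression of the 8 genes (vertical axes, each with its own scale) on each of the 37 arrays, by week after exposure (horizontal axes) and treatment (colours). Points are arrays and bars are group means; the arrays of a week overlap for most genes, and 1 sham array of week 4 lies lowest in the panels of Tgfb1, Tgfbr1, Pmepa1 and Skil.

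Irradiation was not followed by a change in these RNAs that passed the test, except for Tgfb3 at week 1 when arrays were weighted, described with that gene. None of the 8 genes was called at an adjusted p under 0.05 (limma, Benjamini-Hochberg over all 13174 genes) in any of the 9 comparisons of an irradiated group with the sham group of its week. Such calls were rare over all genes: 0.0228% for gamma at week 1, 0.0228% for 30 cGy Si at week 1, 0.0835% for 10 cGy Si at week 1, and 0% for each treatment at weeks 4 and 12. Of the 72 differences, 36 were above 0, and adjusted p ran from 0.383 to 1.00. The 95% intervals reached 0.24 to 0.56 to either side on the log2 scale. They are not adjusted for the 13174 genes, so differences of this size and larger could go uncalled with this number of arrays. Pmepa1 after gamma at week 4, at 0.77, was not called (adjusted p = 0.798). The median difference of the 8 genes was lowest for 30 cGy Si at week 1 (-0.18, against 0.03 for all genes) and highest for gamma at week 4 (0.21, against 0.04). Without sham week 4 replicate 1 the latter was 0.02. The 3 irradiated groups of a week share the same sham arrays, so these differences are not independent of each other.

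**Figure D2:**
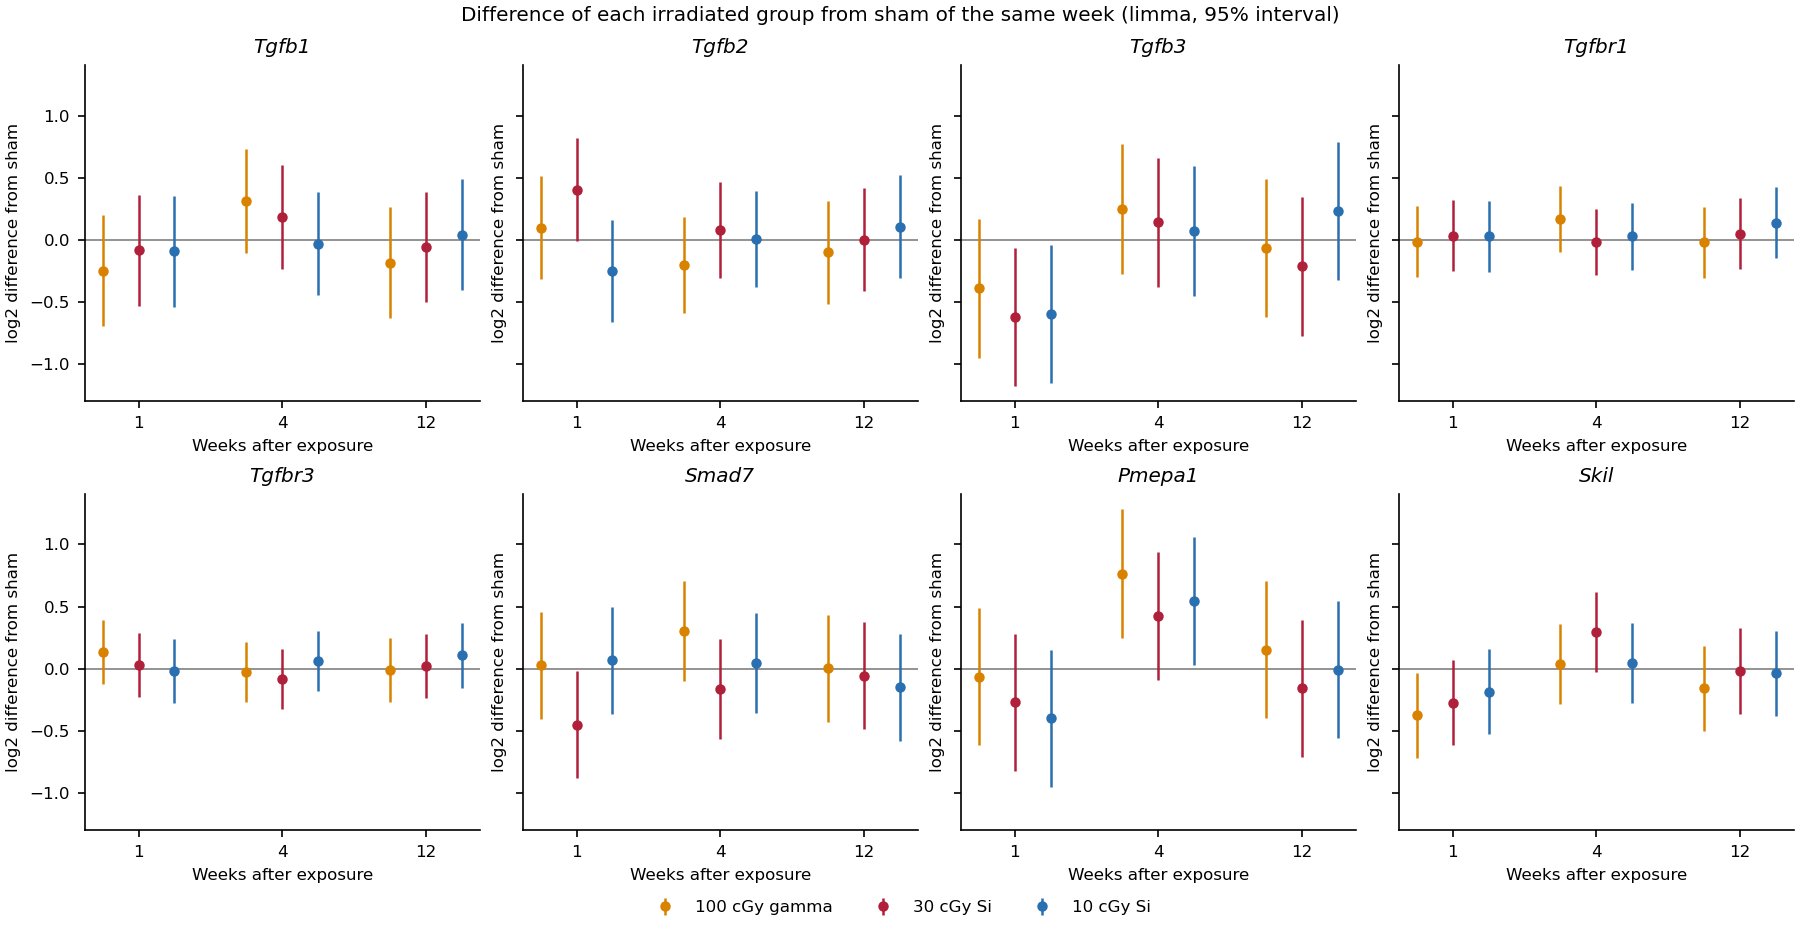
Log2 difference between each irradiated group and the sham group of its week (vertical axis) for the 8 genes, by week (horizontal axis) and treatment (colours). Points are limma estimates and bars their 95% intervals; most intervals span 0, and the widest reach 0.56 to either side.

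At an unadjusted p under 0.05 there were 6 of the 72 differences, none of them called. They were 1 of 8 genes for gamma at week 1 (7.82% of all genes), 1 of 8 for gamma at week 4 (5.56%), 2 of 8 for 30 cGy Si at week 1 (12.0%), 1 of 8 for 10 cGy Si at week 1 (5.40%) and 1 of 8 for 10 cGy Si at week 4 (3.17%). In the other 4 comparisons no member reached it, where 2.82% (gamma, week 12), 8.08% (30 cGy Si, week 4), 5.28% (30 cGy Si, week 12) and 4.70% (10 cGy Si, week 12) of all genes did. Over 8 genes, counts of 1 or 2 set nothing apart from these backgrounds.

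Among the ligands, Tgfb3, an isoform known from mammary epithelium, had the lowest adjusted p. At week 1 the sham arrays read 9.02, 9.43 and 8.03. After 30 cGy Si the arrays read 8.36, 8.08 and 8.19, after 10 cGy Si 8.26, 8.08 and 8.34, and after gamma 8.68, 8.56 and 8.06. Sham arrays 1 and 2 were above every irradiated array and sham array 3 was below all of them. The difference was -0.62 ± 0.27 (SE) for 30 cGy Si (limma adjusted p = 0.383), -0.60 ± 0.27 for 10 cGy Si (adjusted p = 0.877) and -0.39 ± 0.27 for gamma (adjusted p = 0.785). For any irradiation against sham it was -0.53 ± 0.22 (adjusted p = 0.427).

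These Tgfb3 differences turned on single sham arrays. Without sham replicate 3, the difference for 30 cGy Si was -1.01 (adjusted p = 0.301), for 10 cGy Si -0.99 (adjusted p = 0.205) and for gamma -0.79 (adjusted p = 0.576). For any irradiation it was -0.93 (adjusted p = 0.215) without sham replicate 3. Without sham replicate 2 the difference for 30 cGy Si was -0.32 (adjusted p = 0.660) and for 10 cGy Si -0.30 (adjusted p = 0.999). For any irradiation it was -0.23 (adjusted p = 0.785) without that array. The luminal epithelium score moved with it: sham arrays 1 and 2 had scores of 0.49 and 0.53 and sham array 3 -0.83, while the irradiated arrays of week 1 ran from -0.41 to 0.03. All 9 luminal markers tested were lower in the irradiated glands than in sham at week 1, with a mean difference of -0.28 and 0 of 9 called. The 4 covariates used for the tissue mix were the T and NK cell, skeletal muscle, luminal epithelium and brown adipocyte scores. With them the Tgfb3 difference was -0.26 for 30 cGy Si (adjusted p = 0.975) and -0.26 for any irradiation (adjusted p = 0.898). With white adipocyte and fibroblast scores as covariates these were -0.73 (adjusted p = 0.775) and -0.63 (adjusted p = 0.616). With array weights, which count arrays far from their group less, the 30 cGy Si difference was -0.79 and passed the test (adjusted p = 0.0373). Any irradiation at week 1 also passed it with array weights (-0.71, adjusted p = 0.0363).

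Tgfb2, the isoform that depends most on betaglycan, read 6.48, 6.52 and 6.35 after 30 cGy Si at week 1, above the sham arrays at 6.19, 6.25 and 5.70. The groups did not overlap, and the difference was 0.41 ± 0.20 (adjusted p = 0.423). Without sham week 1 replicate 3, the array at 5.70, it was 0.23 ± 0.22 (adjusted p = 0.751). After 10 cGy Si the same week it read 5.71, 5.59 and 6.10, with a difference from sham of -0.25 ± 0.20 (adjusted p = 0.981), and of -0.42 ± 0.22 (adjusted p = 0.601) without that array.

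Tgfb1, the most widely studied isoform and the one whose latent form radiation is known to activate, differed from sham by -0.25 to 0.32 over the 9 comparisons. Its largest difference was at week 4 after gamma, where the arrays read 8.73, 8.54 and 9.13 against 7.64, 8.95, 8.55 and 8.80 in sham. The groups overlapped and the difference was 0.32 ± 0.20 (adjusted p = 0.798). Without sham week 4 replicate 1, the array at 7.64, it was 0.03 ± 0.16. The lowest of the 9, after gamma at week 1, was -0.25 with all arrays and -0.04 without sham week 1 replicate 3. T and NK cell markers lay higher in the gamma group of week 4 too. All 11 were above sham of that week, by 0.96 on average with 0 of 11 called. Their scores ran from 0.36 to 2.48 against -0.93 to 1.78 in sham.

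The receptor genes varied least. Over all 37 arrays the SD was 0.16 for Tgfbr1, the type I receptor, and 0.16 for Tgfbr3, against 0.21 to 0.43 for the other 6 genes. Differences from sham ran from -0.02 to 0.17 for Tgfbr1 and from -0.08 to 0.13 for Tgfbr3. The highest for Tgfbr1 was at week 4 after gamma, with arrays at 7.84, 7.95 and 7.85 against 7.20, 7.95, 7.79 and 7.90 in sham, which overlapped (0.17 ± 0.13, adjusted p = 0.804). Without sham replicate 1, the array at 7.20, the difference was 0.000655 ± 0.11. The highest for Tgfbr3, 0.13 after gamma at week 1, was -0.04 without sham week 1 replicate 3.

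Among the targets, Skil, which encodes the SMAD repressor SnoN, read 6.53, 6.63 and 6.51 at week 1 after gamma and 6.99, 6.80 and 7.00 in sham. The 2 groups did not overlap, and the difference was -0.37 ± 0.17 (adjusted p = 0.592). After 30 cGy Si at week 1 it read 6.66, 6.74 and 6.57, also below every sham array (-0.27 ± 0.17, adjusted p = 0.501).

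Smad7, an inhibitory SMAD that blocks the type I receptor, read 5.53, 5.57 and 5.70 at week 1 after 30 cGy Si, below the sham arrays at 5.90, 5.71 and 6.53. The difference was -0.45 ± 0.21 (adjusted p = 0.399), with -0.21 (adjusted p = 0.780) without sham week 1 replicate 3 and -0.62 (adjusted p = 0.306) without replicate 2. Sham week 1 replicate 3 also had the highest B cell score. All 9 B cell and 11 T and NK cell markers were lower after 30 cGy Si, with 0 called in either list. The scores were -1.80 to -0.50 against -0.62 to 3.16 in sham for B cells and -1.10 to -0.66 against -0.78 to 2.33 for T and NK cells.

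Pmepa1, which encodes a membrane protein that sequesters receptor-activated SMADs, had the largest difference from sham of the 8 genes. At week 4 its sham arrays read 7.47, 9.06, 9.10 and 9.38, and the gamma arrays 9.64, 9.61 and 9.30. The low sham value belongs to replicate 1, and the other sham arrays overlap the gamma arrays. The difference was 0.77 ± 0.25 (adjusted p = 0.798), and 0.34 ± 0.15 (adjusted p = 1.00) without that array. For 10 cGy Si it was 0.54 ± 0.25 (adjusted p = 1.00), and 0.12 without that array. For any irradiation at week 4 it was 0.58 ± 0.20 (adjusted p = 0.809), and 0.15 without it.

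At week 1 after 10 cGy Si, Pmepa1 read 9.48, 9.61 and 9.46, below the sham arrays at 9.99, 9.73 and 10.03. The difference was -0.40 ± 0.27 (adjusted p = 0.970). Groups that did not overlap were thus found 5 times in the 72 differences: 1 of 8 genes for gamma at week 1 (14.3% of all genes), 3 of 8 for 30 cGy Si at week 1 (20.7%) and 1 of 8 for 10 cGy Si at week 1 (11.8%). At weeks 4 and 12 there were none, where groups did not overlap for 3.92% and 5.37% of all genes after gamma, 8.01% and 7.21% after 30 cGy Si, and 3.10% and 8.71% after 10 cGy Si.

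Pooling the weeks gave no call either. None of the 8 genes was called over the 3 weeks for gamma (0% of all genes called), 30 cGy Si (0.0304%) or 10 cGy Si (0%), and none at an unadjusted p under 0.05, where 5.36%, 14.7% and 6.71% of all genes fell. For any irradiation against sham, none was called at week 1 (0.0759%), week 4 (0%), week 12 (0%) or over the 3 weeks (0%). At an unadjusted p under 0.05 there was 1 at week 1 (10.0%), 1 at week 4 (5.83%), 0 at week 12 (4.43%) and 0 over the 3 weeks (9.04%). The treatment-by-week interaction called none (adjusted p = 1.00 for all 8; 0% of all genes), and none fell under an unadjusted p of 0.05 (3.96%).

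The doses and radiation types were compared with each other over the 3 weeks. Between 30 cGy and 10 cGy Si, 0 of 8 genes were called (0.0228% of all genes) and 0 fell under an unadjusted p of 0.05 (6.51%). Tgfb2 was 0.21 higher at the larger dose, with a 95% interval from -0.03 to 0.45, and Smad7 0.21 lower, at -0.21 with an interval from -0.46 to 0.04. Between 30 cGy Si and gamma, 0 of 8 were called (0.00759%) and 1 fell under an unadjusted p of 0.05 (13.5%). It was Smad7, at -0.34 ± 0.12 (adjusted p = 0.255, interval -0.58 to -0.09). The doses of these 2 radiations differ by label, so their comparison is of these exposures and not of equal doses.

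Between the weeks, averaged over the 4 treatments, some of the genes changed. Pmepa1 fell by 0.55 on the log2 scale from week 1 to week 4 (1.46-fold, SE 0.13, adjusted p = 0.0027), and was the 1 of 8 genes called, where 25.8% of all genes were. From week 1 to week 12, 3 of 8 were called, against 35.5% of all genes. Tgfb2 rose by 0.40 (1.32-fold, SE 0.10, adjusted p = 0.00243), Pmepa1 fell by 0.43 (1.35-fold, SE 0.13, adjusted p = 0.0136) and Tgfbr3 fell by 0.20 (1.15-fold, SE 0.06, adjusted p = 0.0146). From week 4 to week 12, 0 of 8 were called, against 1.64% of all genes, and 1 fell under an unadjusted p of 0.05 (15.9%), which was Tgfb2 at 0.26 ± 0.10 (adjusted p = 0.182). The shares of the members are near or below those of all genes.

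**Figure D3:**
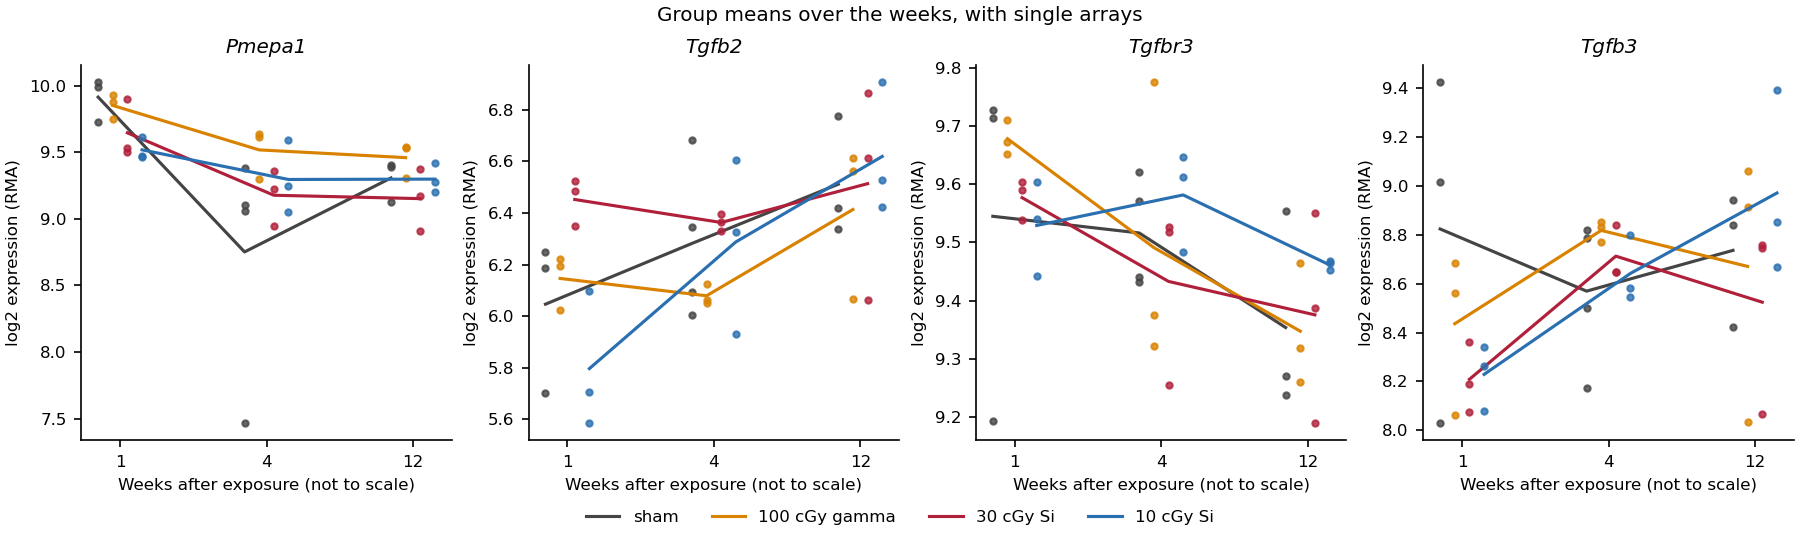
Log2 expression (vertical axes) of Pmepa1, Tgfb2, Tgfbr3 and Tgfb3 by week (horizontal axis, not to scale). Points are arrays and lines join the group means of each treatment (colours); Pmepa1 is lower at weeks 4 and 12 than at week 1 in all 4 treatments, and the means of Tgfb2 at week 12 lie 0.06 to 0.82 above those of week 1.

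For Pmepa1 the direction was the same in all 4 treatments. From week 1 to week 4 the group means differed by -1.16 in sham, -0.33 after gamma, -0.47 after 30 cGy Si and -0.22 after 10 cGy Si. To week 12 they differed by -0.61, -0.39, -0.49 and -0.22, and the arrays of the 2 weeks did not overlap in any treatment. The share of all genes without such overlap between weeks was not counted, here or for Tgfb2 and Tgfbr3 below. Non-overlap therefore does not set these genes apart, and 35.5% of all genes were called to week 12. Without sham week 4 replicate 1 the mean difference to week 4 was -0.44 ± 0.07 (adjusted p = 4.62e-05). With the 4 tissue covariates it was -0.33 (adjusted p = 0.0643) to week 4 and -0.10 (adjusted p = 0.601) to week 12. With white adipocyte and fibroblast scores as covariates it was -0.67 (adjusted p = 0.00735), still called, to week 4 and -0.49 (adjusted p = 0.0616) to week 12.

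Tgfb2 at week 12 read 6.42, 6.78 and 6.34 in sham against 6.19, 6.25 and 5.70 at week 1. After 10 cGy Si it read 6.91, 6.42 and 6.53 against 5.71, 5.59 and 6.10, and in both treatments the weeks did not overlap. The differences in group means were 0.46 in sham, 0.82 after 10 cGy Si, 0.27 after gamma and 0.06 after 30 cGy Si, and arrays overlapped in the last 2. Whether they differ between treatments is covered by the interaction test, which called none of the genes. With the 4 tissue covariates the mean Tgfb2 difference was 0.45 (adjusted p = 0.00442), still called. With white adipocyte and fibroblast scores it was 0.49 (adjusted p = 0.00573), also still called.

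Tgfbr3 was lower at week 12 than at week 1 in all 4 treatments, with differences of -0.19 in sham, -0.33 after gamma, -0.20 after 30 cGy Si and -0.07 after 10 cGy Si. Gamma was the one treatment without overlap, at 9.32, 9.26 and 9.46 against 9.65, 9.71 and 9.67. With the 4 tissue covariates the mean difference was -0.31 (adjusted p = 0.00165), still called, and with white adipocyte and fibroblast scores it was -0.15 (adjusted p = 0.233). Tgfb3, at 0.30 ± 0.14 from week 1 to week 12 (adjusted p = 0.084), was not called. Its group means differed by 0.23 to 0.74 in the irradiated glands and by -0.09 in sham. The sham arrays of week 1 were spread, at 9.02, 9.43 and 8.03, and the interaction test did not call Tgfb3.

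Tissue markers also differed between the weeks, in which 20.4% of all genes were called lower and 15.2% higher to week 12, and 14.8% and 11.0% to week 4. From week 1 to week 12, 5 of 8 white adipocyte markers were called lower and 0 higher, with scores of -0.35 to 0.05 against 0.02 to 0.43. Fibroblast markers had 4 of 9 called lower and 1 higher, endothelial markers 3 of 9 lower and 1 higher, and macrophage markers 3 of 10 higher and 0 lower. To week 4, 5 of 8 white adipocyte, 3 of 9 endothelial and 2 of 9 fibroblast markers were called lower, and 3 of 10 macrophage and 1 of 9 fibroblast markers higher. Of the lists behind the 4 tissue covariates, skeletal muscle had 1 of 10 markers called lower to week 12, with a mean difference of -1.31. Luminal epithelium had 1 of 9 and brown adipocyte 1 of 6 called higher, and T and NK cell 0 of 11 called. Beyond the covariate fits given here, the part of all these markers in the week differences was not tested.

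In the order of the 12 group means, neighbours could rarely be told apart. For 7 of the 8 genes none of the 11 gaps between neighbouring groups exceeded the SD within groups, and for Pmepa1 1 did. That gap set sham week 4, at 8.75 ± 0.87 (SD, n = 4), below 30 cGy Si at week 12, at 9.15, and it rests on the low array. The highest group for Pmepa1 was sham at week 1, at 9.91 ± 0.16 (SD, n = 3). Tgfb1, Tgfbr1 and Smad7 were highest in gamma at week 4, with means of 8.80, 7.88 and 6.24. Tgfb2 and Tgfb3 were highest in 10 cGy Si at week 12, at 6.62 and 8.97, Tgfbr3 in gamma at week 1, at 9.68, and Skil in 30 cGy Si at week 4, at 6.94. The lowest groups were gamma at week 12 for Tgfb1 (8.32), Tgfbr1 (7.62) and Tgfbr3 (9.35). They were 10 cGy Si at week 1 for Tgfb2 (5.80), 30 cGy Si at week 1 for Tgfb3 (8.21) and Smad7 (5.60), and gamma at week 1 for Skil (6.56).

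Some of the members varied between arrays together with marker scores of the tissues in the gland. Each of the 8 genes was set against 10 marker scores over the 37 arrays, and 20 of the 80 pairs had an adjusted p under 0.05 (permutation test of Pearson's r, Benjamini-Hochberg over the 80), 12 positive and 8 negative. Of these, 5 also passed without the 2 arrays of most extreme score and on deviations from the 12 group means with values permuted within groups. They were Tgfb3 with luminal and with basal epithelium, Skil with white adipocytes, and Tgfb1 with T and NK cells and with B cells.

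**Figure D4:**
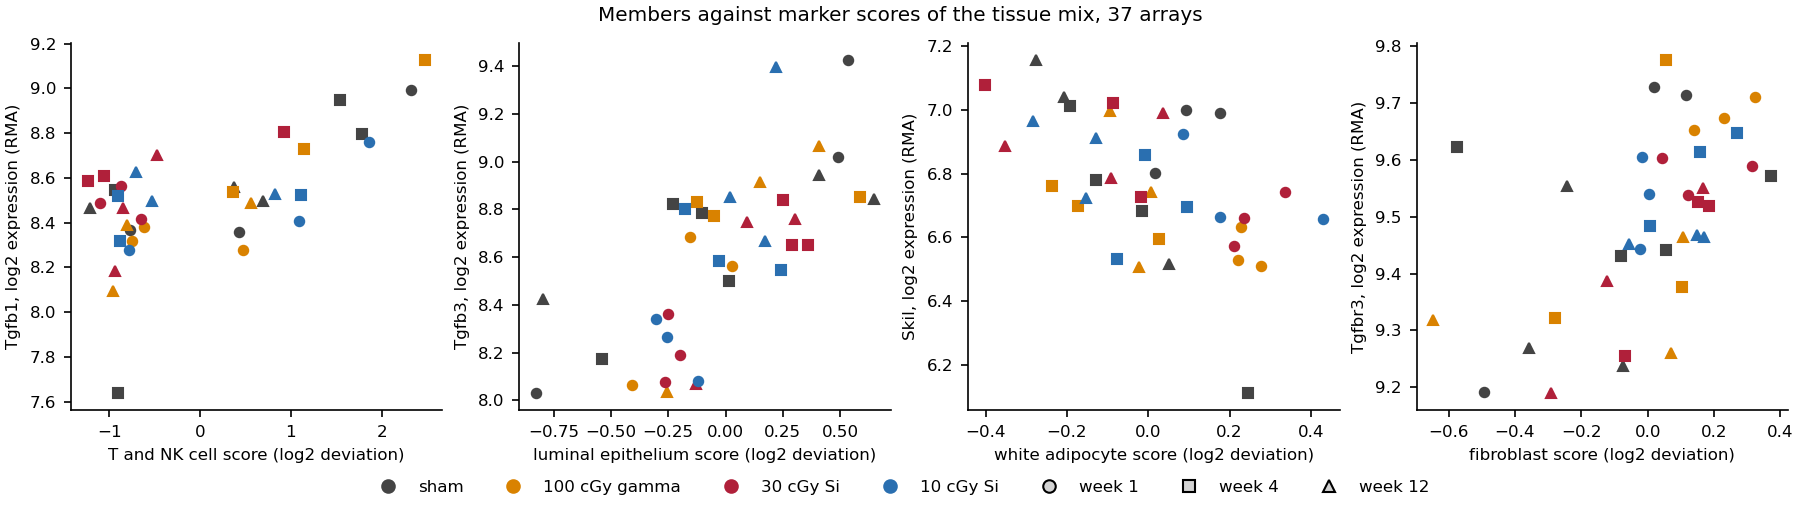
Log2 expression of Tgfb1, Tgfb3, Skil and Tgfbr3 (vertical axes) against marker scores (horizontal axes, mean log2 deviation of the list) on 37 arrays; colours are treatments and shapes are weeks. Tgfb3 rises with the luminal epithelium score (r = 0.705), Skil falls with the white adipocyte score (r = -0.557), Tgfbr3 rises with the fibroblast score (r = 0.532), and the T and NK cell score splits the arrays into 21 below -0.47 and 16 above 0.36.

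Tgfb3 followed the luminal epithelium score most closely. Pearson's r was 0.705 and Spearman's rho 0.745 (permutation p = 1e-05 for both, the smallest that 100000 permutations can give; adjusted p = 0.0008 for both). Without the 2 most extreme arrays r was 0.705, on group deviations 0.686 (adjusted p = 0.0196), and within weeks 1, 4 and 12 it was 0.870, 0.396 and 0.611. With the basal epithelium score r was 0.502 and rho 0.518 (permutation p = 0.00133 and 0.00131, adjusted p = 0.00818 and 0.015). Without the 2 most extreme arrays r was 0.494, and within the weeks 0.721, 0.743 and 0.514.

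Skil went against fat. Its r with the white adipocyte score was -0.557 and rho -0.578 (permutation p = 0.00029 and 0.00022, adjusted p = 0.00377 and 0.0088). Without the 2 most extreme arrays r was -0.529, on group deviations -0.601 (adjusted p = 0.0451), and within the weeks -0.530, -0.758 and -0.569. For Tgfbr3 and the fibroblast score r was 0.532 and rho 0.544 (permutation p = 0.00059 and 0.00054, adjusted p = 0.00524 and 0.0108), and r was 0.656 without the 2 most extreme arrays. Within the weeks it was 0.810, 0.215 and 0.459, and on group deviations 0.424, which did not pass (adjusted p = 0.174).

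The T and NK cell score falls into 2 clusters of arrays, so Tgfb1 is given within each. In the 16 arrays with scores from 0.36 to 2.48, Tgfb1 ran from 8.28 to 9.13, with r = 0.852 (permutation p = 4e-05, adjusted p = 0.00064 over 16 relations) and rho = 0.703 (permutation p = 0.00319, adjusted p = 0.051). Without the 2 most extreme of these arrays r was 0.718. In the 21 arrays with scores from -1.24 to -0.48, r was 0.0791 (permutation p = 0.731, adjusted p = 0.849) and rho 0.0195 (permutation p = 0.934). Smad7 had r = 0.609 in the 16 arrays (permutation p = 0.013, adjusted p = 0.0704), and 0.217 without the 2 most extreme, so that relation rests on those arrays.

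The relations of Pmepa1, Tgfbr1 and Skil with the brown adipocyte score rest partly on sham week 4 replicate 1. Pmepa1 had r = -0.679 and rho = -0.435 (permutation p = 0.0001 and 0.00789, adjusted p = 0.002 and 0.0332), and r = -0.383 (adjusted p = 0.098) without the 2 most extreme arrays. Leaving out only that array gave -0.471 for Pmepa1, -0.470 for Tgfbr1 and -0.371 for Skil, where all 37 had given -0.679, -0.636 and -0.555. Weeks 1 and 12 do not hold that array. Within them r was -0.253 and -0.721 for Pmepa1, -0.346 and -0.479 for Tgfbr1, and -0.541 and -0.731 for Skil. On group deviations of all 37 arrays, Skil (-0.851, adjusted p = 0.0032) and Tgfbr1 (-0.735, adjusted p = 0.0147) passed. Pmepa1 did not (-0.626, adjusted p = 0.079).

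Pairs of members were related less firmly. Of 28 pairs, 5 had an adjusted p under 0.05 over all arrays and none without the 2 most extreme arrays of the first gene. The highest was Tgfb1 with Tgfbr1, ligand and receptor, at r = 0.601 and rho = 0.489 (permutation p = 0.00013 and 0.00229, adjusted p = 0.00364 and 0.0641). It was 0.393 without the 2 arrays, and -0.0367 within week 12. Tgfb2 with Tgfb3 had r = 0.506 and rho = 0.440 (permutation p = 0.00131 and 0.00695, adjusted p = 0.0183 and 0.0871), and on group deviations 0.672 (adjusted p = 0.0375). Within weeks 1, 4 and 12 it was 0.217, 0.114 and 0.869, and without the 2 arrays 0.401. The other called pairs were Tgfbr1 with Skil (r = 0.470), Tgfb1 with Skil (0.441) and Tgfb2 with Smad7 (-0.441). Without sham week 4 replicate 1 alone, r was 0.419 for Tgfb1 with Tgfbr1, 0.253 for Tgfbr1 with Skil and 0.210 for Tgfb1 with Skil, so the last 2 rest on that array.

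The genes whose deviations from the group means were most like each member were picked among 12451 genes over the 37 arrays, by Pearson's r as a description. They were Tle4 for Tgfb1 (0.881), Adamtsl5 for Tgfb2 (0.853) and Stac2 for Tgfb3 (0.860), followed by Boc (0.858) and Sox10 (0.841). For the receptors they were Rsf1 for Tgfbr1 (0.839) and Lama2 for Tgfbr3 (0.831). For the targets they were Kbtbd11 for Smad7 (0.734), Tmem87a for Pmepa1 (0.885) and Kdm5a for Skil (0.907). Without the 2 arrays least like the rest, r was 0.717 for Tmem87a and 0.783 for Tle4. All points share arrays, hybridisation and tissue mix.

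Other genes of the pathway were taken from 4 lists, of latency and activation, co-receptors and SMAD machinery, target genes, and activin and BMP relatives. Of 83 genes listed, 76 had a probe set of their own and 75 passed the filter. None of the 75 was called in any of the 9 weekly comparisons with sham, in the comparisons over the 3 weeks, or between the radiation types. At an unadjusted p under 0.05 there were 11 of 75 for gamma at week 1 (7.82% of all genes), 8 for 30 cGy Si at week 1 (12.0%) and 3 for 10 cGy Si at week 1 (5.40%). At week 4 there were 9 for gamma (5.56%), 6 for 30 cGy Si (8.08%) and 2 for 10 cGy Si (3.17%), and at week 12 0 (2.82%), 2 (5.28%) and 1 (4.70%). In 30 cGy Si against gamma over the 3 weeks there were 17 of 75 (13.5% of all genes). Over all these comparisons, the lowest adjusted p was that of Bhlhe40, a transcriptional repressor and TGF-beta target, at -0.63 ± 0.13 in that comparison (adjusted p = 0.0738).

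The gene with the lowest unadjusted p among the 75 was Timp1 in both Si comparisons at week 4, which share their sham arrays. It was a different gene in each of the other weekly comparisons with sham, and none of these differences passed the test. After gamma it was Inhbb, an activin subunit gene, at week 1 (-0.47 ± 0.15, adjusted p = 0.363), and Eng, the endothelial co-receptor endoglin, at week 4 (0.35 ± 0.10, adjusted p = 0.798). After 30 cGy Si it was Id2, a target of BMP signalling, at week 1 (-0.77 ± 0.20, adjusted p = 0.225), and Timp1, an inhibitor of matrix proteases, at week 4 (1.01 ± 0.28, adjusted p = 0.453). After 10 cGy Si it was Timp3, of the same inhibitor family, at week 1 (0.46 ± 0.14, adjusted p = 0.354), and Timp1 at week 4 (0.68 ± 0.28, adjusted p above 0.906). At week 12 it was Ltbp4 after gamma (0.27 ± 0.14), Lox, which crosslinks collagen, after 30 cGy Si (-0.43 ± 0.18) and Acvr2a after 10 cGy Si (0.30 ± 0.15), with adjusted p of 0.906 or above.

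Between weeks the same lists had 26 of 75 genes called from week 1 to week 4 (34.7%, against 25.8% of all genes), 8 higher (11.0% of all genes) and 18 lower (14.8%). From week 1 to week 12 there were 27 of 75 (36%, against 35.5%), 10 higher (15.2% of all genes) and 17 lower (20.4%). From week 4 to week 12 there were 3 (4%, against 1.64%), 0 higher (0.698%) and 3 lower (0.941%). The medians of the 75 differences were -0.06, -0.04 and -0.00249, and those of all genes -0.00340, -0.02 and -0.01.

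**Figure D5:**
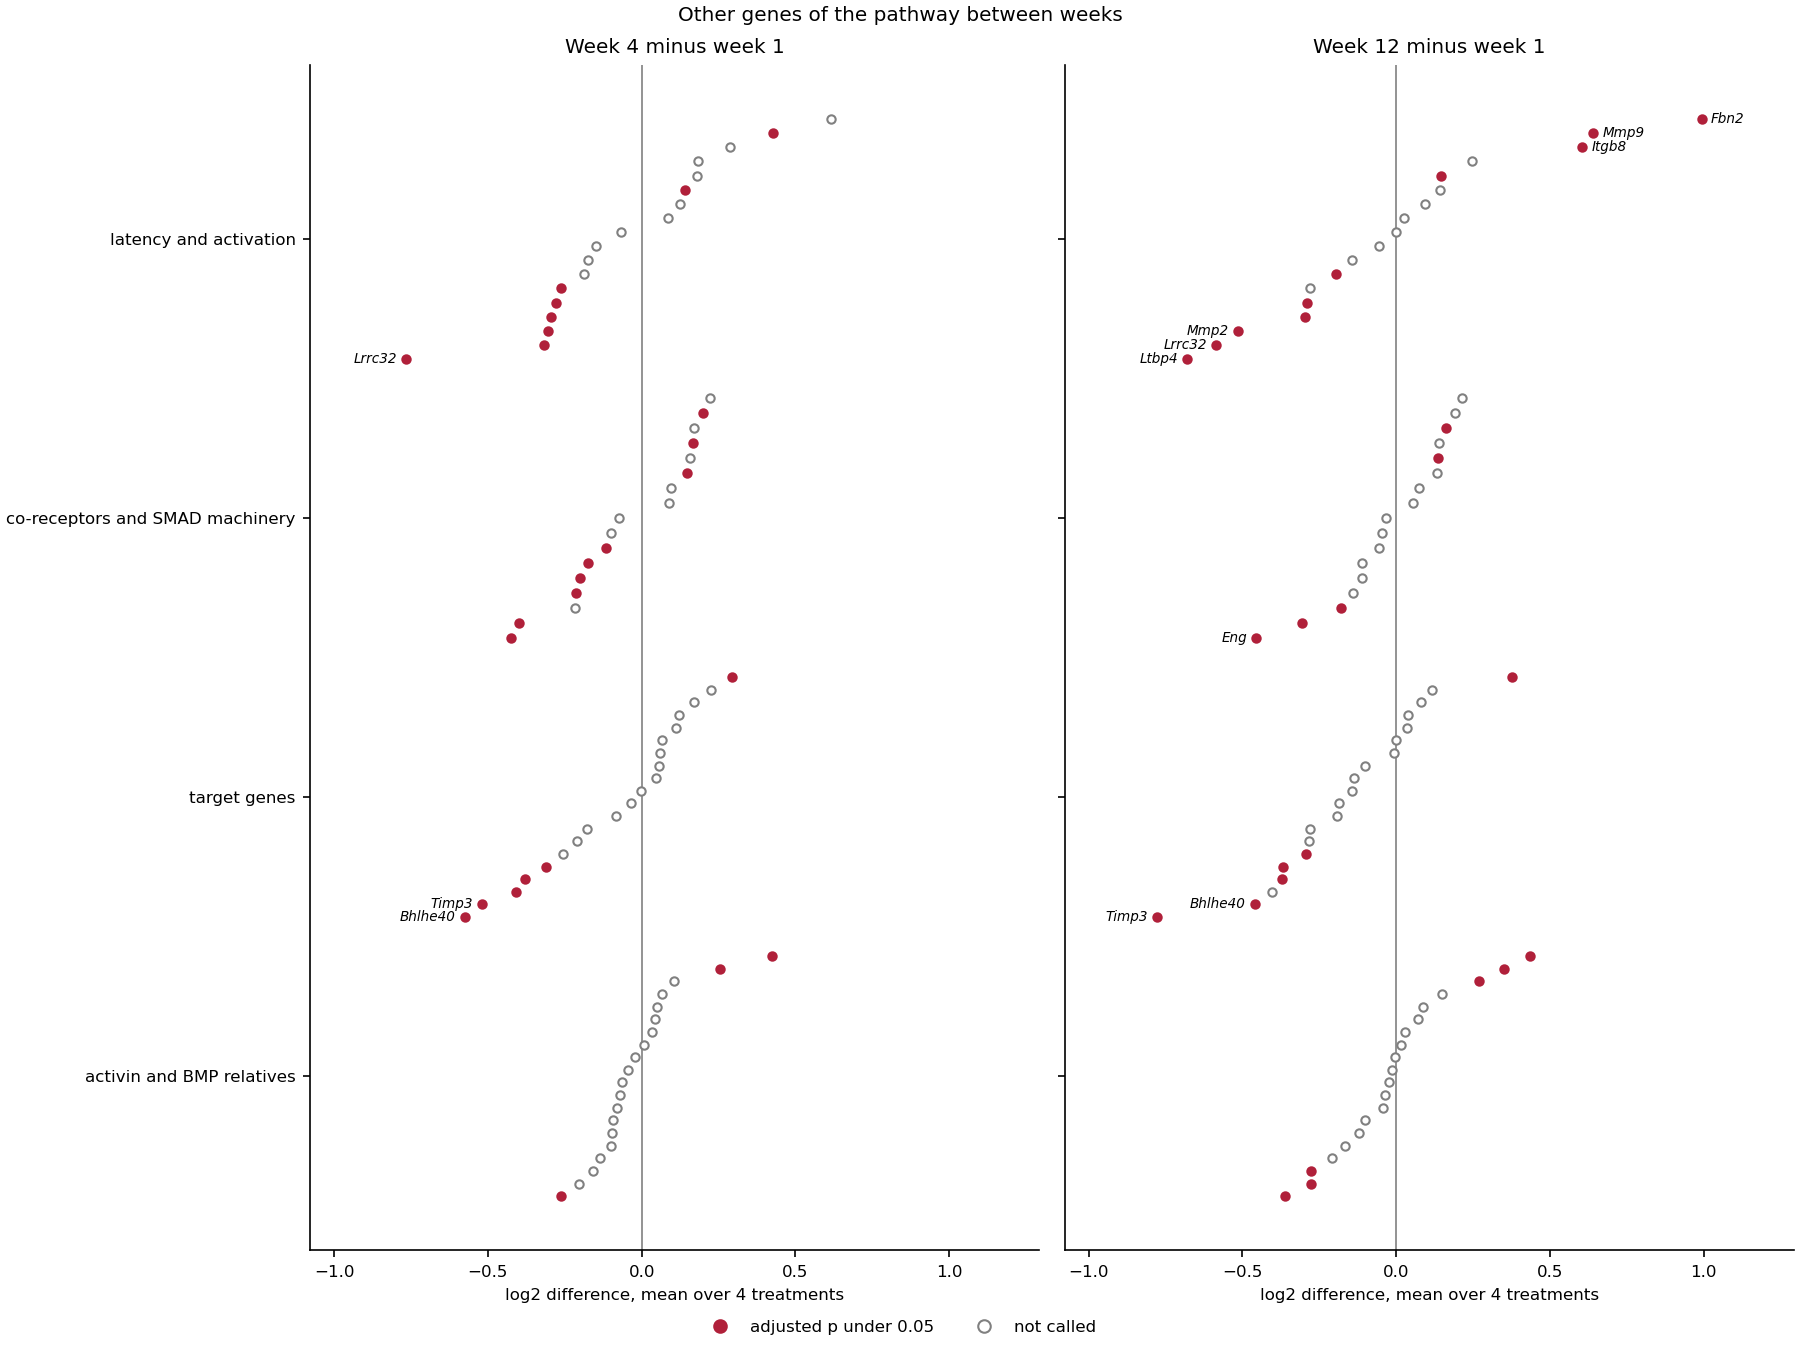
Log2 difference between weeks (horizontal axis, mean over the 4 treatments) for 75 further genes of the pathway, in 4 lists (vertical axis) and ordered by size within each. Filled points have a limma adjusted p under 0.05; 18 of the 26 filled points in the left panel and 17 of the 27 in the right one lie below 0.

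Of the 18 genes of latency and activation, 10 were called from week 1 to week 12 (55.6%, against 35.5% of all genes), 4 higher and 6 lower. Ltbp4, a latent TGF-beta binding protein that ties the ligand to the matrix, fell by 0.68, and Ltbp3 of the same family fell by 0.30. Lrrc32, which encodes GARP, a protein that displays latent TGF-beta on the cell surface, fell by 0.59. Itgb8, a subunit of an integrin that activates the latent ligand, rose by 0.61, and the fibrillin gene Fbn2 rose by 0.99. Of the proteases that can release the ligand, Mmp9 rose by 0.64 and Mmp2 fell by 0.52. Of the others called, the proteoglycan genes Bgn and Dcn fell by 0.29 and rose by 0.15, and Furin, a protease that cleaves the ligand precursors, fell by 0.20. From week 1 to week 4, 8 of the 18 were called (44.4%, against 25.8%), 2 higher and 6 lower. Lrrc32 fell by 0.77, Itgb8 rose by 0.43 and Dcn rose by 0.14, and Ltbp4, Ltbp3, Furin, Ltbp2 and Bgn fell by 0.26 to 0.32.

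Of the 17 co-receptors and SMAD genes, 9 were called from week 1 to week 4 (52.9%, against 25.8% of all genes; 3 higher, 6 lower) and 5 to week 12 (29.4%, against 35.5%; 2 higher, 3 lower). Eng fell by 0.42 to week 4 and by 0.45 to week 12. Endothelial markers, given above, also had members called lower. Ski, the SMAD repressor related to Skil, fell by 0.40 and by 0.31. The receptor-activated Smad2 rose by 0.20 and by 0.16, and the common partner Smad4 rose by 0.15 and by 0.14. To week 4 the ubiquitin ligase gene Smurf2 also rose by 0.17, while Smad3, Nedd4l, Fkbp1a and Smurf1 fell by 0.12 to 0.21. Acvrl1, an endothelial type I receptor, fell by 0.18 to week 12.

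Among the 20 target genes, 6 were called from week 1 to week 4 and 6 from week 1 to week 12 (30% each, against 25.8% and 35.5% of all genes), each time 1 higher and 5 lower. Timp3 fell by 0.52 to week 4 and by 0.78 to week 12. Bhlhe40 fell by 0.58 and by 0.46, and the AP-1 gene Junb fell by 0.38 and by 0.37. Tgfb1i1 fell by 0.41 and by 0.37, and the cell cycle inhibitor Cdkn2b fell by 0.31 and by 0.29. Snai2, a transcription factor of epithelial-mesenchymal transition, was the one that rose, by 0.29 and by 0.38. The same 20 genes had a median difference of -0.02 to week 4 (9 above 0) and -0.17 to week 12 (5 above 0). The medians of all genes were -0.00340 and -0.02, and the medians were not tested. From week 1 to week 12 Pmepa1 fell, Smad7 differed by -0.15 (adjusted p = 0.265) and Skil by 0.13 (adjusted p = 0.242).

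Of the 20 activin and BMP relatives, 3 were called to week 4 (15%, against 25.8% of all genes; 2 higher, 1 lower) and 6 to week 12 (30%, against 35.5%; 3 higher, 3 lower). Id2 rose by 0.43 and by 0.44, and the BMP receptor gene Bmpr1a rose by 0.26 and by 0.35. Smad1, which carries the BMP signal, fell by 0.26 and by 0.28. The activin receptor gene Acvr2a rose by 0.27 to week 12, and the ligand genes Gdf11 and Bmp6 fell by 0.36 and 0.28. The 3 genes that changed from week 4 to week 12 were Ltbp4, Mmp2 and Timp3, which fell by 0.36, 0.37 and 0.26 (adjusted p = 0.00721, 0.0391 and 0.0455). Ltbp4 was called in all 37 fits that leave out 1 array, Mmp2 in 22 and Timp3 in 14, and 1 gene alone was called in 13 of these fits and with no filter.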

How the data were processed

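The deposited table holds log2 expression values of 35556 probe sets on 37 Affymetrix arrays, made by the authors with RMA in oligo, per the submitters' processing notes; their versions and the genome build are not given in the sources used here. Of the probe sets, 21218 carry 1 gene symbol, 1881 several and 12457 are unlisted. Each gene is its probe set with the highest mean. Genes in the lowest 30% by mean (log2 4.04) were left out. A limma 3.58.1 fit of 12 group means over all arrays (25 residual degrees of freedom) gave every contrast, with p-values adjusted by Benjamini-Hochberg over 13174 genes. The fit was also run on simulated data with independent noise for each gene, which hold no outlying arrays and no shared tissue mix. Alternatives cover the probe set rule, the filter, normalization, array weights, a block for replicate number, tissue covariates and leaving out arrays. Permutation tests drew 100000 permutations. The precision is limited by the number of arrays. Named genes are the members, pathway genes called or of lowest p in a contrast, and the genes most like each member. The members and gene lists were chosen with earlier results of these data known.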

Additional observations from a re-analysis of the deposited data

Results flagged for a closer look

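In sham glands at week 4, the lowest of the 4 arrays for Pmepa1 read 7.47, with the next at 9.06 and the highest at 9.38. Its gap to the nearest array was 0.831 of the range of the group, just above Dixon's 95% limit for 4 arrays. Chance passes this limit in about 1 of 20 groups, and 8 genes were examined in this one group of 4. The same array, replicate 1, was also the lowest of all 37 for Tgfb1 (7.64), Tgfbr1 (7.20) and Skil (6.11), with gaps of 0.694, 0.782 and 0.634 of the range, which did not pass the limit. It had the highest brown adipocyte score of the 37 arrays.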

How the results depend on the processing

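The counts of members called kept to within 1.5 times in all 37 fits that leave out 1 array, for all 22 comparisons. With array weights, 1 member was called for 30 cGy Si at week 1 and 1 for any irradiation at week 1, in both cases Tgfb3 (-0.79, adjusted p = 0.0373, and -0.71, adjusted p = 0.0363), and 3 from week 1 to week 4. From week 1 to week 4, 0 members were called with 4 tissue covariates and 2 without both arrays least like the rest. With white adipocyte and fibroblast covariates, chosen after seeing the data, 1 was called from week 1 to week 12 (Tgfb2) and 1 from week 4 to week 12 (Tgfb2, 0.35, adjusted p = 0.0167). Pathway genes called from week 4 to week 12 were 3, and 1 with no filter, 1 in a fit of only those groups, 5 with white adipocyte and fibroblast covariates, and 1 to 4 when leaving out 1 array. Pairs of member and marker score called fell from 20 to 9 without the 2 most extreme arrays and to 10 on group deviations. Pairs of members fell from 5 to 0, 2 and, with quantile normalization, 2. Tgfb3 from week 1 to week 12 was called with array weights (adjusted p = 0.0306) and without 1 of 3 single arrays (sham week 1 replicate 2, gamma week 12 replicate 1 or 30 cGy Si week 12 replicate 3). Causes were not tested.

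With the replicate block the counts of members called were the same, 1 from week 1 to week 4 (Pmepa1, -0.60, adjusted p = 0.00109) and 3 from week 1 to week 12. Replicate 4 exists only in sham week 4, so its block takes up that array. Leaving that array out gave the same Pmepa1 difference (-0.60). Between groups, deviations of same-numbered arrays correlated at a mean of 0.0169 (198 pairs, 74 above 0.1). Others correlated at a mean of -0.00828 (429 pairs, 143 above 0.1). Pairing by number within a week was not tested. The number of arrays per group limits every comparison with sham.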
